A study of Mus musculus with 15 samples.

Results

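CpG methylation of megakaryocyte-erythroid progenitors (MEP) carrying Idh2 R140Q was compared with that of MEP labelled wild type (WT). The comparison rests on 4 of the 15 libraries of a mouse reduced representation bisulfite sequencing study, 2 labelled biological replicates per group. All cells were freshly sorted from C57BL/6 bone marrow as Lin-, cKit+, Sca1-, CD34- and CD16/32-. The Idh2 R140Q cells were Mx1-cre-, Dnmt3a f/f and carried Idh2 R140Q, and the WT cells were Mx1-cre+ and Dnmt3a f/f. Both groups therefore carried floxed Dnmt3a, and Mx1-cre, which acts in blood cells after interferon induction, was present in the WT group only. The Idh2 R140Q and WT titles also carry the tags M140 and GFP, which the labels do not explain. The sources used here do not give ages, sexes or the way the R140Q form was introduced. They also do not say whether replicates came from separate animals, so p-values measure the spread between libraries. In tests of single regions this spread was taken from all 15 libraries of the study. Granulocyte-macrophage progenitors (GMP) of the same 2 genotypes, again 2 libraries each, served as a second cell type.

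Idh2 is a mitochondrial isocitrate dehydrogenase. Its R140Q form, found in acute myeloid leukaemia, makes 2-hydroxyglutarate from 2-oxoglutarate, and this product inhibits enzymes that need 2-oxoglutarate, among them the TET enzymes that oxidise 5-methylcytosine. MEP are marrow progenitors of red cells and platelets. Bisulfite leaves methylated cytosines unconverted, so methylation at a CpG is the share of reads that keep the cytosine. Bisulfite does not separate 5-methylcytosine from 5-hydroxymethylcytosine.

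Of 1434127 autosomal CpGs read in any of the 15 libraries, 400951 had at least 10 reads in all 4 MEP libraries and entered the comparison. The libraries held 19536034 and 24587340 read counts over listed cytosines in Idh2 R140Q MEP, against 33938292 and 35204906 in WT MEP. The median depth of a kept CpG was 27 and 34 reads in Idh2 R140Q MEP and 44 in each WT MEP library. The groups also differed in sex chromosome content. Reads on X came to 1.27% and 1.29% of autosomal reads in Idh2 R140Q MEP, against 2.21% and 2.25% in WT MEP. Reads on Y came to 288 and 239 per 1000000 autosomal reads in Idh2 R140Q MEP, against 54.0 and 56.7 in WT MEP. Depth, sex chromosome content and Mx1-cre all moved with the genotype and cannot be told apart from it, for every result given here. Reads over Idh2 and Dnmt3a were of similar number in all 4 libraries and check neither genotype, since the counts carry no base changes.

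The stretches below come from the 6 largest called rises, from 4 of the 6 largest called falls, and from the 2 largest differences in each direction at listed blood and developmental genes. Stretches of 1700048O20Rik and Brsk1, among the largest falls, are left out because they overlap annotated UTR bases. They are mm9 reference sequence of the + strand, 5′ to 3′, and capitals mark the CpGs with at least 10 reads in all 4 MEP libraries. The first set was more methylated in Idh2 R140Q MEP.
Rbm20 chr19:53913281-53913438: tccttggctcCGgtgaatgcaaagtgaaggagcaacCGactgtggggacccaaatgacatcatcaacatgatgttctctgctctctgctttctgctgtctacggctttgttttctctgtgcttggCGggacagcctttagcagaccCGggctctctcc
Vps37b chr5:124460812-124460970: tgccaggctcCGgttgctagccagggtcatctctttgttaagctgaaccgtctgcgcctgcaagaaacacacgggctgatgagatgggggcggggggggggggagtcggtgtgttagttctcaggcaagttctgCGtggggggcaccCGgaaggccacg
Notch2 chr3:97828433-97828475: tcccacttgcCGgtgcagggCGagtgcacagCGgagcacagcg
Dido1 chr2:180394203-180394248: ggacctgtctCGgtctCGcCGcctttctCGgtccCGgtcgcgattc
Rapgef2 chr3:78985561-78985715: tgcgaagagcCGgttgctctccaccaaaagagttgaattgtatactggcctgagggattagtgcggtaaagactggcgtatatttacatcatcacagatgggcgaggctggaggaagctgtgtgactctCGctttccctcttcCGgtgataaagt
Abhd15 chr11:77331841-77331974: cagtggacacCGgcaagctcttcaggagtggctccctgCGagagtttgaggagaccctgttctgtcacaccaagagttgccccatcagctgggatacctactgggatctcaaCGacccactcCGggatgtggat
Notch1 chr2:26338404-26338539: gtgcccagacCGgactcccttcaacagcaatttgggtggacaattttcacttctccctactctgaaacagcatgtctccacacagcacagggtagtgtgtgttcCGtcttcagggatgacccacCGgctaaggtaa
Nfix chr8:87295674-87295928: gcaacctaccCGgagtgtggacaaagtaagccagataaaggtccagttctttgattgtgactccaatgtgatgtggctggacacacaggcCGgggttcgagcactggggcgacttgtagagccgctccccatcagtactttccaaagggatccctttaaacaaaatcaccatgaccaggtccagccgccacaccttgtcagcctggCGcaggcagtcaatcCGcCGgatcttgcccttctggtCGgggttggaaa
The second set was less methylated in Idh2 R140Q MEP.
Gipc2 chr3:151755778-151755901: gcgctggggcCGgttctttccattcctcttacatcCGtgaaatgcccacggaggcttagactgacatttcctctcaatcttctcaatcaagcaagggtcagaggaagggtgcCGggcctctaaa
Ifng chr10:118066669-118066700: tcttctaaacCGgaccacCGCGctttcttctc
Fras1 chr5:96760589-96760717: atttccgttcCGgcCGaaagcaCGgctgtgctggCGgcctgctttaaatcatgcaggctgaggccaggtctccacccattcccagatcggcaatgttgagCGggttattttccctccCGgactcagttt
Gm16432 chr1:179900076-179900125: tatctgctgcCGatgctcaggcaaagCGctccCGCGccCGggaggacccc
Tbx5 chr5:120316762-120316929: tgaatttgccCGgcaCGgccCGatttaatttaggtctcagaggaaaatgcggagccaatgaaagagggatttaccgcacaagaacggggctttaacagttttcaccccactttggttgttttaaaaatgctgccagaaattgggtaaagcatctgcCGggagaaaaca
Zfpm1 chr8:124833284-124833492: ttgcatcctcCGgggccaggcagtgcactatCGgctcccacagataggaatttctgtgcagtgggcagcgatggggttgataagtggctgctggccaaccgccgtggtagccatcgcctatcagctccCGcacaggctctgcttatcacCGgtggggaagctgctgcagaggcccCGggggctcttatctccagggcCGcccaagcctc
Each of these stretches holds ccgg, the site of the enzyme MspI commonly used for such libraries, so the measured CpGs of a stretch sit on 1 or a few neighbouring restriction fragments and share reads.

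Averaged over the 400951 CpGs, methylation was 43.8% and 43.1% in Idh2 R140Q MEP, against 41.4% and 43.2% in WT MEP. The groups overlapped, and the difference of 1.16 percentage points was within the spread of libraries (exact two-sided permutation test, p = 0.667). When reads instead of CpGs had equal weight, it was -4.02 points. With 2 libraries per group this test cannot give a p below 0.333. CpGs were then divided by their pooled level in WT GMP. These libraries are not part of the comparison, but they are not independent of the WT MEP libraries, as described below.

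CpGs that were nearly unmethylated in GMP carried more methylation in both Idh2 R140Q MEP libraries. At the 185529 CpGs under 20% in WT GMP, levels were 3.29% and 3.07% in Idh2 R140Q MEP, against 1.93% and 1.96% in WT MEP. The groups did not overlap, and the difference of 1.23 points was larger than the SD of 0.155 in Idh2 R140Q and of 0.0216 in WT (exact permutation p = 0.333, the smallest possible). On mitochondrial DNA, 1.12% and 0.280% of reads were unconverted in Idh2 R140Q MEP, against 1.63% and 1.62% in WT MEP, and the part of bisulfite conversion in this difference was not tested. At the 45003 CpGs between 20% and 80% in WT GMP, levels were 61.8% and 61.1% in Idh2 R140Q MEP and 55.2% and 58.7% in WT MEP. These groups did not overlap either, and the difference of 4.46 points exceeded the SD of 2.51 in WT (exact permutation p = 0.333). It was 2.68 points without WT replicate 1, and 1.70 points when reads instead of CpGs had equal weight, where the groups overlapped (exact permutation p = 0.667). At the 147873 CpGs over 80%, the 90.2% and 89.1% of Idh2 R140Q MEP lay within the 87.9% and 91.3% of WT MEP (exact permutation p = 1).

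Region by region, methylation rose at 351 and fell at 69 of 48625 windows of 1 kb. A window held at least 3 measured CpGs, its level was the share of its reads that were methylated, and it was called at an adjusted p under 0.05 (quasi-binomial model, Benjamini-Hochberg over all windows) with group means at least 10 points apart. The rises were 0.722% of windows tested and the falls 0.142%. Rises had a median difference of 27.9 points and falls of -24.5 points, against a median of 0.342 points over all windows. At 54 rises and 7 falls the groups differed by 40 points or more. In every called window the 2 Idh2 R140Q libraries lay on one side of the 2 WT libraries, as they did in 34.3% of all windows. Across all windows replicates differed by a median of 2.63 points between the Idh2 R140Q libraries and 2.24 points between the WT libraries.

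The number called rests on few libraries and on the model. It was 148 rises and 56 falls without Idh2 R140Q replicate 1, 25 and 2 without Idh2 R140Q replicate 2, 106 and 32 without WT replicate 1, and 34 and 5 without WT replicate 2. With the spread taken from the 4 MEP libraries alone, instead of all 15 libraries, 0 rises and 0 falls were called. limma called 7 rises and 1 fall and the edgeR quasi-likelihood test called 0 rises and 1 fall. In the quasi-binomial model over all 15 libraries, 6303 windows had an unadjusted p under 0.05.

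**Figure D1:**
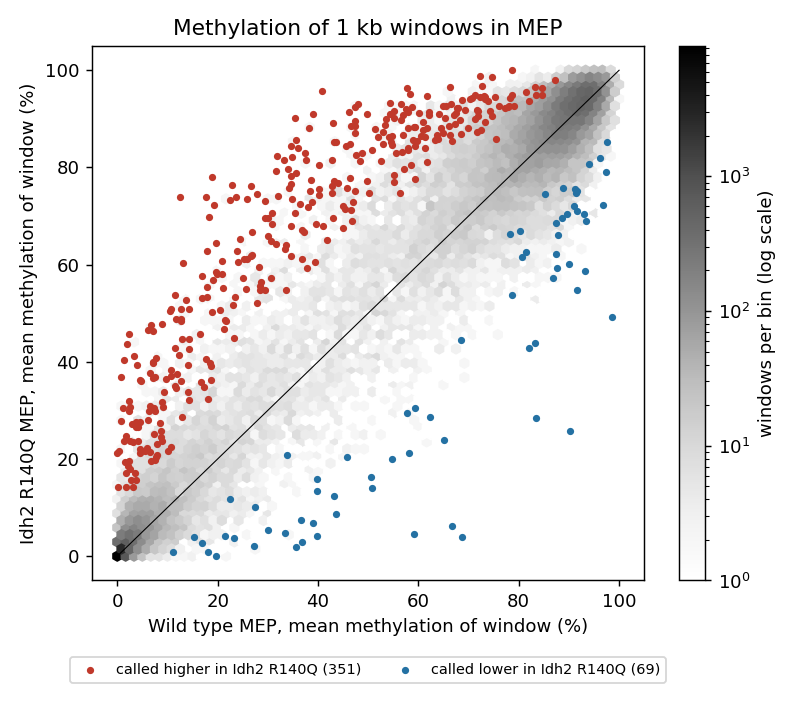
Mean methylation (%) of each 1 kb window in Idh2 R140Q MEP (vertical axis) against WT MEP (horizontal axis), 2 libraries per group. Grey hexagons count all 48625 windows on a log scale, red points are the 351 windows called higher in Idh2 R140Q, blue points the 69 called lower, and the line marks equal levels. Rises start mostly from low and middle WT levels, and falls lie along the whole range.

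The rises started mostly from low or intermediate methylation. In WT MEP, 122 of the 351 rising windows lay under 20%, 222 between 20% and 80% and 7 over 80%. Of the 69 falling windows, 5 lay under 20%, 32 between 20% and 80% and 32 over 80% in WT MEP. These WT levels are part of the contrast that chose the windows, so windows were also grouped by their level in WT GMP. This grouping is not independent of the contrast. WT GMP entered the shared dispersion, and its replicates deviated together with those of WT MEP across windows (r = 0.329). Among windows at 5% to 20% in WT GMP, 93 of 3453 rose (2.69%), and among those at 20% to 80%, 184 of 7381 rose (2.49%). Among windows at 0% to 5%, 58 of 16738 rose (0.347%), and the share was 0.1005% at 80% to 95% and 0 above that, where little room for a rise of 10 points is left. The median difference of all windows, called or not, was 4.02 points at 20% to 80%, 1.71 at 5% to 20% and 0.122 at 0% to 5%. Falls took 0.379% of windows at 20% to 80%, 0.195% of those at 80% to 95% and 0 of those at 0% to 5%.

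Rises were sparse at promoters and denser in introns. Of windows within 1 kb of a start site, 68 of 18572 rose (0.366%) and 12 fell. In introns, 128 of 9759 rose (1.31%) and 20 fell. In coding exons 45 of 5244 rose (0.858%) and 5 fell, and between genes 104 of 14483 rose (0.718%) and 32 fell. By distance, the share that rose was 1.17% at 1 to 5 kb from a start site, 1.06% at 5 to 50 kb and 0.589% beyond 50 kb. Of 4 classes of CpG density in the reference, the densest (48 to 182 CpGs per kb) had the fewest rises. There 30 of 11919 windows rose (0.252%), against 127 of 11700 (1.09%) in the class with 17 to 24. These shares are descriptions, and place, density and starting level go together. All 19 autosomes held rises, at 0.495% to 1.01% of their windows.

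**Figure D2:**
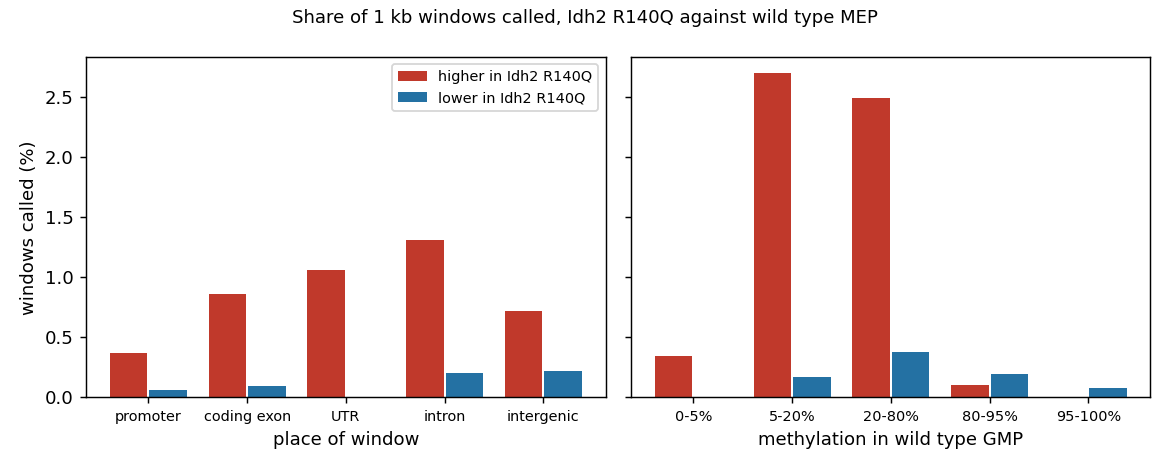
Share of tested 1 kb windows (%) called higher (red) or lower (blue) in Idh2 R140Q MEP against WT MEP, by the place of the window (left) and by its level in WT GMP (right). The share called higher is 1.31% in introns and 0.366% at promoters, and 2.69% and 2.49% in the classes of 5% to 20% and 20% to 80%.

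The called windows were scattered over single loci. Windows within 10 kb of each other formed 408 loci, of which 11 held more than 1 called window. Genes with a called window in their promoter, exons or introns numbered 273, and 8 had more than 1. Nfix, a transcription factor of the nuclear factor I family, had 4 of its 12 tested windows called, all higher. Sept9, a septin of the cytoskeleton, had 3 of 22, all higher. Around Pxn, which encodes the focal adhesion protein paxillin, 3 neighbouring windows rose by 32.2, 37.2 and 38.9 points. The last of these lay 737 bp from a Pxn start site, with 57.1% and 38.5% in Idh2 R140Q MEP against 9.01% and 8.75% in WT MEP. Tpt1 was the gene called in both directions. Sept9 and Pxn were picked after their values were seen.

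Among the largest rises, the first lay in an intron of Rbm20, which encodes a splicing factor of muscle. Its window had 67.7% and 80.05% in Idh2 R140Q MEP, against 19.04% and 5.98% in WT MEP, a difference of 61.4 points (adjusted p = 0.00717, quasi-binomial model). Both mutant libraries were high and all 4 CpGs of the printed stretch moved the same way, the fourth of them with 71.4% and 77.9% in Idh2 R140Q MEP against 16.5% and 5.45% in WT MEP, over 35 to 110 reads. A coding exon of Vps37b, a subunit of the ESCRT-I sorting complex, had 63.1% and 92.8% in Idh2 R140Q MEP, against 14.6% and 23.1% in WT MEP (adjusted p = 0.0360). The replicates of Idh2 R140Q lay far apart there, yet above both WT libraries. Notch2, a Notch receptor, was similar in an intron, with 57.8% and 89.9% in Idh2 R140Q MEP against 24.7% and 10.8% in WT MEP (adjusted p = 0.0340).

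Dido1, which encodes a histone-binding PHD finger protein, was close to fully methylated in a coding exon in both mutant libraries. The window had 95.2% and 96.1% in Idh2 R140Q MEP, against 34.3% and 47.1% in WT MEP, over 14 reads per CpG in each WT library (adjusted p = 0.00320). The 5 CpGs of this 46-base stretch lie on the same reads. In WT MEP the third of them was at 64.3% and 85.7% and the fifth at 21.4% in each library, while in Idh2 R140Q MEP all 5 were at 85.7% or more. limma called this window as well (adjusted p = 0.0471).

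Rapgef2, an exchange factor for Rap GTPases, and Abhd15, an alpha/beta hydrolase family gene, had the largest rises within 1 kb of a start site. The Rapgef2 window, 309 bp from a start site, had 91.1% and 89.2% in Idh2 R140Q MEP, against 42.2% and 28.6% in WT MEP (adjusted p = 0.0172). The Abhd15 window, 157 bp from a start site and shared with the gene model Gm10392, had 79.4% and 73.4% in Idh2 R140Q MEP, against 29.95% and 15.8% in WT MEP (adjusted p = 0.00722). The promoter of Rapgef2 was called too, and that of Gm10392. They hold the same 3 CpGs as the Rapgef2 window and the same 4 CpGs as the Abhd15 window, so these calls repeat the window calls. The next 7 of the 14 largest rises lay in introns of 6430531B16Rik, Slc26a8, Ggta1 and Fam38a, in coding exons of Sall2 and Pcnx and 12585 bp from the start of Asprv1, with differences of 50.1 to 53.1 points. Fam38a encodes a mechanosensitive ion channel, and Sall2 a zinc finger transcription factor. The Fam38a window had 71.8% and 74.7% in Idh2 R140Q MEP against 22.8% and 22.1% in WT MEP. Its difference of 50.8 points was 36.2 points in a 500 bp window. At its first measured CpG the groups overlapped, with 31.25% and 50% in Idh2 R140Q MEP against 22.6% and 37.9% in WT MEP. The last of the 14, 691 bp from a start site of Ckap4, an endoplasmic reticulum protein, had 89.5% and 86.7% in Idh2 R140Q MEP against 43.9% and 32.6% in WT MEP.

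The largest fall lay between genes, 9928 bp from the start of Gipc2, a PDZ domain gene. Its window had 7.7% and 0.0% in Idh2 R140Q MEP, against 52.2% and 85.1% in WT MEP, a difference of -64.8 points (adjusted p = 0.0325). Methylation was nearly lost in both mutant libraries, while the WT libraries lay far apart. A window 188576 bp from the nearest start site, that of the cytokine gene Ifng, had 33.3% and 18.2% in Idh2 R140Q MEP, against 90.7% and 89.6% in WT MEP (adjusted p = 0.0153). The lower levels of the Gipc2 and Ifng windows were not particular to Idh2 R140Q. Means were 27.2% and 29.0% in Dnmt3a knockout MEP, 34.7% and 42.9% in Dnmt3a knockout GMP and 42.4% and 43.8% in double mutant progenitors. WT GMP had 75.4% and 91.8%. The promoter window of 1700048O20Rik had 1.9% and 10.4% in Idh2 R140Q MEP, against 67.1% and 66.1% in WT MEP, over 6 CpGs (adjusted p = 0.0106). In a coding exon of Brsk1, a kinase of neurons, the window had 2.8% and 6.1% in Idh2 R140Q MEP, against 63.8% and 54.4% in WT MEP. Double mutant progenitors had 85.7% at 1700048O20Rik and 94.5% at Brsk1, and Dnmt3a knockout MEP 49.6% and 36.2%. The windows of Fras1, Fam107a and Eno4 fell by 55.0, 41.2 and 39.4 points. As whole windows their groups did not overlap. They did at CpG 2 of Fras1, CpG 3 of Fam107a and each measured CpG of Eno4. CpG 1 of Eno4 had 3.2% and 70% in Idh2 R140Q MEP, against 76.5% and 55.6% in WT MEP. CpG 3 of Eno4 had 88.9% and 27.8% in Idh2 R140Q MEP, against 88.0% and 90.7% in WT MEP.

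A window 21452 bp from the start of Gm16432 fell by 49.3 points, with 46.5% and 52.1% in Idh2 R140Q MEP against 98.0% and 99.3% in WT MEP (adjusted p = 0.00286). It was the one named window that was called without each of the 4 libraries in turn, and also by limma (adjusted p = 0.00582) and the edgeR quasi-likelihood test (adjusted p = 0.0262). The lower level was not particular to Idh2 R140Q MEP. Means were 52.7% in Idh2 R140Q GMP, 45.1% in Dnmt3a knockout MEP, 47.7% in Dnmt3a knockout GMP and 45.9% in double mutant progenitors. WT GMP had 91.25%, so the window separated the WT libraries from every other group. It held 299 and 309 reads in Idh2 R140Q MEP, against 150 and 135 in the deeper WT MEP libraries, and the reason was not tested. The loss was uneven along the stretch. The middle 3 CpGs had 18.3% to 20% in the first and 29.0% in the other Idh2 R140Q library, against 96.7% and 100% in WT MEP. The outer 2 CpGs had 73.8% to 100% in Idh2 R140Q MEP, against 96.3% to 100% in WT MEP.

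**Figure D3:**
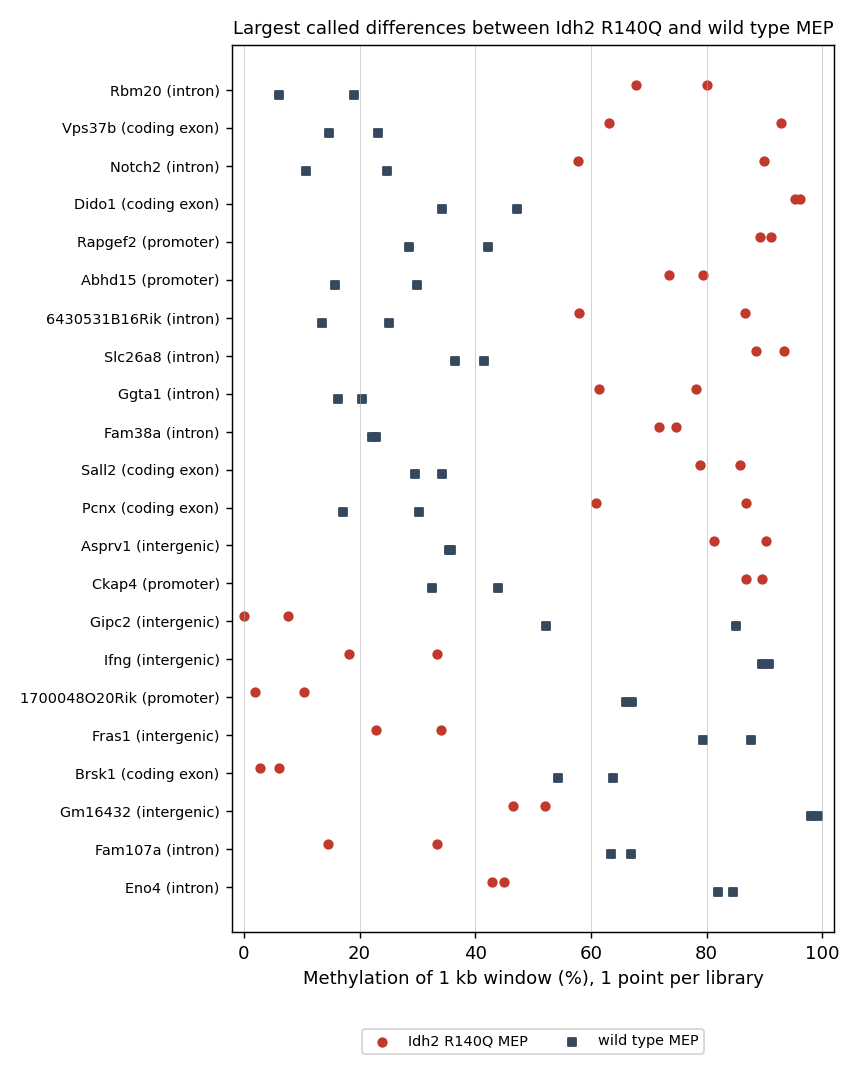
Methylation (%) of the 14 largest called rises and the 8 largest called falls, 1 point per library, with Idh2 R140Q MEP as red circles and WT MEP as dark squares. Rows run from the largest rise at the top (Rbm20) to Ckap4, then from the largest fall (Gipc2) to Eno4. No row has overlapping groups at the level of the whole window, although in some rows the groups overlap at single CpGs. The Idh2 R140Q replicates of Vps37b and Notch2 and the WT replicates of Gipc2 are the farthest apart.

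Few promoters were called. Of 13686 promoters, the CpGs within 1 kb of a start site, 19 rose (0.139%) and 3 fell (0.0219%) at the same thresholds, and the median difference over all promoters was 0.123 points. These counts were 0 to 3 rises and 0 falls when any 1 of the 4 libraries was left out, and limma and the edgeR quasi-likelihood test called 0, with 1379 promoters at an unadjusted p under 0.05 in the quasi-binomial model. Among the rises, the promoters of Skap1 and Gm11529 hold the same 7 CpGs and were counted separately. The promoters that fell were those of Alkbh3, Eps15 and 1700048O20Rik. Alkbh3, itself a 2-oxoglutarate-dependent enzyme that removes alkyl groups from DNA and RNA, had 0.6% and 0.0% in Idh2 R140Q MEP, against 14.1% and 12.7% in WT MEP over 9 CpGs (adjusted p = 0.0122). Eps15, an endocytic adaptor, had 1.8% and 3.4% in Idh2 R140Q MEP, against 15.8% and 13.8% in WT MEP. The lower levels of Alkbh3 and Eps15 were not particular to Idh2 R140Q. Alkbh3 means were 0.964% in Dnmt3a knockout MEP, 0.509% in Dnmt3a knockout GMP and 4.52% in double mutant progenitors, against 9.31% in WT GMP. Eps15 means were 3.72%, 2.67% and 6.14% in these groups, against 15.03% in WT GMP. The 1700048O20Rik promoter was not low there, with 49.6%, 61.7% and 85.7%, against 57.1% in WT GMP. Among promoters that rose, Emr1, the macrophage marker F4/80, had 95.5% and 88.5% in Idh2 R140Q MEP, against 64.5% and 50.7% in WT MEP. Hvcn1, a proton channel of leukocytes, had 73.5% and 72.1% in Idh2 R140Q MEP, against 28.1% and 43.1% in WT MEP. Klra3, a natural killer cell receptor, had 82.0% and 81.2% in Idh2 R140Q MEP, against 35.04% and 40% in WT MEP. Cbfa2t3, a corepressor of erythroid and megakaryocyte transcription complexes, had a smaller rise over 34 CpGs, with 18.3% and 20.3% in Idh2 R140Q MEP against 8.5% and 7.9% in WT MEP (adjusted p = 0.0261). Emr1, Hvcn1, Klra3 and Cbfa2t3 were picked after their values were seen.

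None of 10 gene lists, with 12 to 71 measured promoters each, had a called promoter. Over all 13686 promoters 0.139% rose and 0.0219% fell, so lists of this size would hold few or no calls at that share. Windows in or at stem and early progenitor genes had 5 rises and 1 fall among 157, against 0.723% and 0.108% of all 34142 windows in or at genes. Of those 5 rises, 4 were in Nfix and 1 in Flt3. Windows of erythroid and megakaryocyte genes had 1 rise and 1 fall among 80, and those of granulocyte and macrophage genes 2 rises among 43. Lymphoid genes had 1 rise among 72, cytokine signalling genes 1 among 71 and leukaemia and tumour suppressor genes 1 among 178. Developmental transcription factors had 1 fall among 285. There were 0 calls among 130 windows of 2-oxoglutarate enzyme and DNA methylation genes, 64 of imprinted genes and 42 of germline genes. Median differences of list promoters lay between -0.00186 and 0.797 points.

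Within the stem and early progenitor list, Nfix had its largest called window in a coding exon. It had 68.8% and 68.1% in Idh2 R140Q MEP, against 30.4% and 31.2% in WT MEP (adjusted p = 0.0453), and the replicates of each group nearly coincided. Flt3, a receptor tyrosine kinase of early progenitors, had an intron window at 61.7% and 48.0% in Idh2 R140Q MEP, against 30.3% and 28.5% in WT MEP (adjusted p = 0.0379). Prdm16, a transcription factor of stem cells, had 78.1% and 72.9% in Idh2 R140Q MEP, against 90.6% and 92.0% in WT MEP in a coding exon, 1 of its 31 windows (adjusted p = 0.0470).

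Of genes of the MEP lineages, Zfpm1, the FOG-1 cofactor of GATA1, had an intron window at 6.5% and 4.4% in Idh2 R140Q MEP, against 23.3% and 36.6% in WT MEP over 8 CpGs (adjusted p = 0.0250). It fell by 24.5 points. The 6 CpGs of the printed stretch were uneven, since at the first 2 the groups overlapped (the first had 14.8% and 3.1% in Idh2 R140Q MEP, against 10.3% and 19.6% in WT MEP), while the sixth, with the greatest gap, was at 0 in both mutant libraries, against 31.4% and 53.8% in WT MEP. Itgb3, the integrin beta-3 chain of platelets, had a coding exon window at 84.7% and 83.5% in Idh2 R140Q MEP, against 62.5% and 53.5% in WT MEP (adjusted p = 0.0474). The start sites of Zfpm1, Itgb3, Klf1 and Itga2b were at 3.40% or less in all 4 libraries. They are part of 19 measured promoters of the erythroid and megakaryocyte list, with medians of 1.21% in Idh2 R140Q MEP and 0.472% in WT MEP. Not all were low. Trim10 had 87.4% and 86.4% in Idh2 R140Q MEP, against 83.9% and 84.5% in WT MEP. Rhd had 32.9% and 22.4% in Idh2 R140Q MEP, against 47.1% and 72.7% in WT MEP.

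Myeloid and lymphoid genes gave further rises. Notch1, the receptor that directs T cell fate, had an intron window at 66.3% and 62.6% in Idh2 R140Q MEP, against 24.2% and 15.2% in WT MEP (adjusted p = 0.0133). Prtn3, a protease of neutrophil granules, had 34.8% in both Idh2 R140Q MEP libraries, against 17.9% and 16.6% in WT MEP, in a window 711 bp from a start site (adjusted p = 0.0478). This window was called in 2 of 14 alternatives, and the groups overlapped at its CpGs 1 and 5. A window near a start site of the cytokine gene Il10 rose by 31.8 points and was called in 2 of 10 alternatives. Near a start site of Socs3, an inhibitor of cytokine signalling, the difference was 16.7 points (adjusted p = 0.0495), but 4.26 points with a minimum of 20 reads (adjusted p = 0.354) and 5.82 points in a 500 bp window, and the window was called in 1 of 14 alternatives. Tbx5, a transcription factor of heart and forelimb, fell in an intron to 2.4% and 1.2% in Idh2 R140Q MEP, against 34.9% and 36.5% in WT MEP (adjusted p = 0.0272).

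**Figure D4:**
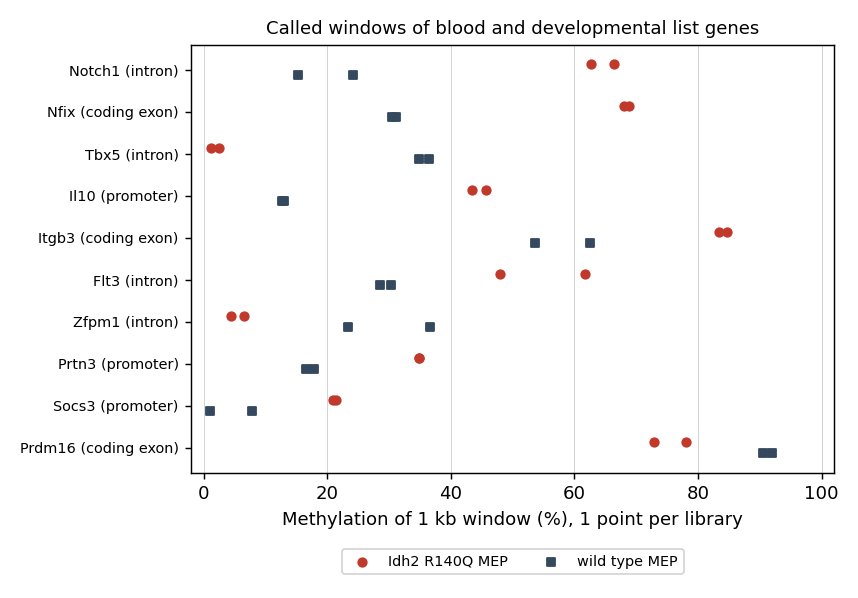
Methylation (%) of the largest called window of each of 10 listed blood or developmental genes, 1 point per library, with Idh2 R140Q MEP as red circles and WT MEP as dark squares. Tbx5, Zfpm1 and Prdm16 are lower in both Idh2 R140Q libraries and the other 7 genes higher.

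The sorted population was described through methylation at marker genes, since no RNA was measured. Over 44 windows of 11 MEP marker genes, mean levels were 34.0% in Idh2 R140Q MEP and 34.5% in WT MEP, below the 39.2% of Idh2 R140Q GMP and the 39.2% of WT GMP. Over 21 windows of 8 GMP marker genes, levels were 32.3% in Idh2 R140Q MEP and 27.6% in WT MEP, against 29.6% in Idh2 R140Q GMP and 25.5% in WT GMP. Klf1, the erythroid factor, was at 0 in these 4 groups over its 1 window, so it does not tell MEP from GMP. Over the 44 MEP marker windows the median difference between genotypes was 0.00124 points, with 0 rises and 1 fall called, in Zfpm1. Epor had 6.67% in Idh2 R140Q MEP and 0.948% in WT MEP, without a called window. Rhd had 64.4% in Idh2 R140Q MEP and 72.0% in WT MEP, also without a called window. The Rhd libraries overlapped, with 67.3% and 61.4% in Idh2 R140Q MEP against 66.7% and 77.4% in WT MEP. Stem markers had 49.0% in Idh2 R140Q MEP and 47.0% in WT MEP over 57 windows. Lymphoid markers had 52.1% in Idh2 R140Q MEP and 50.6% in WT MEP over 25 windows. The part of a shift in cell composition in the called windows was not tested.

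Most called windows differed in the same direction in GMP. The GMP libraries were not in the contrast that chose the windows, but they entered the shared dispersion, and MEP and GMP libraries of 1 genotype with the same replicate number deviated together across windows (r = 0.397 for Idh2 R140Q and 0.329 for WT), so they are not independent of the MEP libraries. Over the 351 rising windows, mean levels were 54.7% and 54.0% in the Idh2 R140Q GMP libraries, against 31.8% and 31.3% in the WT GMP libraries. The median GMP difference was 21.2 points, against 27.9 points in MEP. It was positive in 349 of the 351, against 64.4% of all windows, and in 337 of them the GMP groups did not overlap. Over all 48625 windows, 13498 had GMP groups that did not overlap, in the direction of their MEP difference. Over the 69 falling windows, mean levels were 46.3% and 51.0% in the Idh2 R140Q GMP libraries, against 66.4% and 65.8% in the WT GMP libraries, with 66 of 69 lower in Idh2 R140Q, as were 15776 of all 48625 windows. Some GMP values were far from those in MEP. Notch2 had 11.6% and 5.6% in Idh2 R140Q GMP, against 0.9% and 3.7% in WT GMP, and Notch1 9.5% and 9.1% in Idh2 R140Q GMP, against 1.5% and 3.9% in WT GMP. At Dido1 GMP levels were 91.4% and 86.2% in Idh2 R140Q and 33.3% and 45.0% in WT, close to those in MEP.

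A test of the difference between the cell types, the interaction of genotype with cell type in the quasi-binomial model, called 0 of 48614 windows, with 1934 at an unadjusted p under 0.05, 58 of them among the called windows. limma also called 0. A difference between MEP and GMP was thus not detectable at this depth and number of libraries. The GMP libraries of the 2 genotypes differ in Mx1-cre as the MEP libraries do, and in sex chromosome content, with 199 and 266 reads on Y per 1000000 autosomal reads in Idh2 R140Q GMP, against 56.0 and 57.5 in WT GMP. The labels do not say whether MEP and GMP came from the same animals.

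**Figure D5:**
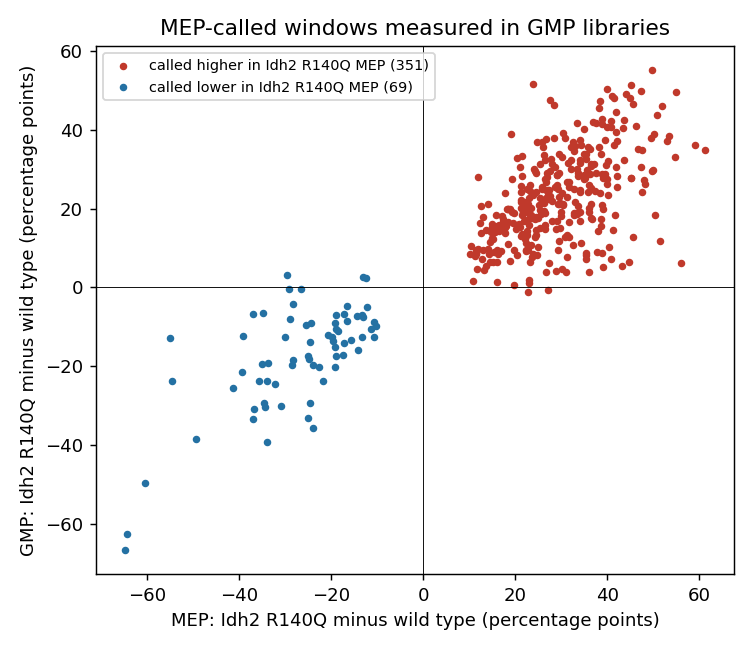
Difference in methylation between Idh2 R140Q and WT (percentage points) in GMP (vertical axis) against MEP (horizontal axis), 1 point per window called in MEP, 351 higher (red) and 69 lower (blue). The MEP values chose the windows; in GMP 349 of the red points lie above 0 and 66 of the blue points below it.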

How the data were processed

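Freshly sorted mouse progenitors were profiled by reduced representation bisulfite sequencing. The aligner was BSMAP 2.74 and the build mm9, per the submitters' processing notes. For each cytosine the deposited files hold counts of methylated and of all reads, capped at 65535, on which all tests rest. The deposited methylation fraction equals the ratio of both counts and was otherwise left aside. The sources used here do not give duplicate removal, trimming or a conversion rate. Reads of 1 restriction fragment share their ends, so counts overstate the number of molecules and cover counting error only.

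Both strands of a CpG were added. An autosomal CpG was kept if each of the 4 MEP libraries had at least 10 reads there. All lay on CG in the NCBIM37 (mm9) reference. Genes came from gencode vM1, without 2 gene models longer than 3000000 bp. Windows of 1 kb and promoters (1 kb on each side of a start site) needed at least 3 such CpGs, with a median of 4 and 12. The reads of a window are summed over its CpGs, so 1 read can count several times (median 133 to 225 per library).

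Methylated against all reads were fitted with a quasi-binomial logistic model, 1 mean for each of 7 groups over 15 libraries. A library with under 10 reads in a feature was left out of it, and 96.0% of windows used all libraries. The dispersion, shared over all groups, was moderated by an empirical Bayes prior (3.20 degrees of freedom for windows and 2.72 for promoters, medians 2.31 and 2.62) and kept at 1 or more. P-values were adjusted by the Benjamini-Hochberg method over all features, and error is the SD over libraries. The model was run on simulated data with libraries drawn independently at a fixed dispersion. These cannot show how it behaves where MEP and GMP libraries deviate together, as they did here. limma 3.58.1 and edgeR 4.0.16 in R 4.3.3 were alternatives, as were a minimum of 20 reads, CpGs covered in all 15 libraries, 500 bp windows or promoter sides, 5 CpGs per window, 25 points, the 4 MEP libraries alone, read-weighted means, a replicate block and leaving out each library. Python 3.11.15, numpy 2.4.6, scipy 1.17.1 and pandas 2.3.3 were used.

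Named windows are the 14 largest rises and 8 largest falls among called windows without overlap between groups, at most 1 per 10 kb, with the largest called window of each listed gene, 1 of which is not reported here. A window belongs to the gene holding it, otherwise to the nearest start site. Comparisons, lists and members were chosen with earlier results of these data known.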

Additional observations from a re-analysis of the deposited data

Results flagged for a closer look

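Reads on the Y chromosome, which no comparison uses, were higher in both Idh2 R140Q MEP libraries than in either WT MEP library. They came to 288 per 1000000 autosomal reads in Idh2 R140Q MEP replicate 1 and 239 in replicate 2, against at most 56.7 in WT MEP. Reads on X were lower in Idh2 R140Q MEP. The high Y share was not particular to Idh2 R140Q. Reads on Y per 1000000 autosomal reads were 203 to 303 in Dnmt3a knockout libraries and 357 to 386 in double mutant libraries. Reads on X were 1.17% to 1.29% and 1.28% to 1.47% of autosomal reads there, so the WT libraries stood apart from all other groups. The labels give no sex, and Idh2 R140Q and WT differ in this way in GMP as well. The part of this difference in the autosomal differences cannot be told apart from that of Idh2 R140Q.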

How the results depend on the processing

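Mean CpG methylation turned to -4.02 points when reads instead of CpGs had equal weight; the cause was not tested. At highly methylated CpGs, leaving out 1 library gave -1.65 to 1.69 points. Rises numbered 220 with CpGs covered in all 15 libraries, 115 with at least 5 CpGs per window, 213 at 25 points, 7 with limma, 699 with the edgeR likelihood ratio test (chosen after seeing the data), 0 with the edgeR quasi-likelihood test or the 4 MEP libraries alone, and 25 to 148 without 1 library. Falls numbered 40 with CpGs covered in all 15 libraries, 23 with 5 CpGs, 33 at 25 points, 1 with limma, 160 with the likelihood ratio test, 1 with edgeR quasi-likelihood, 0 in the 4 libraries alone, and 2 to 56 without 1 library. Promoter rises numbered 12 with 500 bp sides, 12 at 25 points, 43 with the likelihood ratio test, 0 with limma, edgeR quasi-likelihood or the 4 libraries, and 0 to 3 without 1 library. Promoter falls numbered 8 at 20 reads, 1 at 25 points, 10 with the likelihood ratio test, and 0 with limma, edgeR quasi-likelihood, the 4 libraries or 1 library left out. With replicate number as a block, 143 rises, 23 falls, 2 promoter rises and 0 promoter falls were called, but the labels do not pair the compared groups, and their replicate differences had r = -0.0363 across windows (MEP against GMP of 1 genotype, 0.397 for Idh2 R140Q and 0.329 for WT). Of 33 named windows, limma called 2, the block 13, and 11, 1, 13 and 5 were called without Idh2 R140Q replicate 1 or 2 or WT replicate 1 or 2. The interaction count was 0 in the 10 alternatives run for it. A filter on the opposite strand was not run, since those columns hold no values.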

Other observations

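Of the other called windows, 4 were picked after their values were seen. A window outside Gata2, 3726 bp from a start site of this transcription factor of stem cells and early progenitors, had 45.6% and 44.0% in Idh2 R140Q MEP. WT MEP had 21.7% and 24.6% there, over 8 CpGs. The 10 windows in or at Gata2 itself had 0 calls, with means of 15.3% in Idh2 R140Q MEP and 12.1% in WT MEP. An intron of Cdk6, a cell cycle kinase, had 79.6% and 79.7% in Idh2 R140Q MEP, against 36.3% and 31.6% in WT MEP. A promoter window of Nfkb1, a subunit of the transcription factor NF-kappaB, had 85.5% and 80.5% in Idh2 R140Q MEP, against 39.3% and 35.5% in WT MEP. A window 3177 bp from a start site of Id2, an inhibitor of helix-loop-helix factors, had 21.8% and 25.3% in Idh2 R140Q MEP, against 2.29% and 4.18% in WT MEP. The adjusted p of these 4 windows was under 0.05 in the quasi-binomial model and above it in limma and in the edgeR quasi-likelihood test.

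Other differences did not pass. The Hoxb5 promoter had 17.8% and 18.7% in Idh2 R140Q MEP, against 46.9% and 46.4% in WT MEP (adjusted p = 0.0590, quasi-binomial model). The Rhd promoter, of an erythrocyte membrane antigen gene, had 32.9% and 22.4% in Idh2 R140Q MEP, against 47.1% and 72.7% in WT MEP (adjusted p = 0.143). Over 2 windows of the erythropoietin receptor gene Epor, the means were 6.02% and 7.31% in Idh2 R140Q MEP, against 0.923% and 0.972% in WT MEP.

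At the 351 rising windows, mean levels were 65.2% in Idh2 R140Q MEP, 43.3% in Dnmt3a knockout MEP, 46.1% in double mutant progenitors and 35.9% in WT MEP. At the 69 falling windows they were 37.6% in Idh2 R140Q MEP, 51.6% in Dnmt3a knockout MEP, 62.0% in double mutant progenitors and 64.5% in WT MEP. The double mutant libraries also carry Idh2 R140Q, but the labels call them malignant stem and progenitor cells, sorted with the MEP markers. The windows were chosen on the first and last of these groups, and no difference between the mutant groups was tested.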
